A study of Mus musculus with 6 samples.

Results

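The transcripts described here are those of the 7 cardiac myosin chains of the mouse: the heavy chains Myh6, Myh7 and Myh7b and the light chains Myl2, Myl3, Myl4 and Myl7. They were taken by Ensembl gene identifier from the 39177 gene rows of 6 RNA-seq libraries, and all 7 have a row in every library. The tested mice, 3 in number, are titled L/L, cre (genotype field Polrmt -/-). They lost loxP-flanked exon 3 of Polrmt, which encodes the mitochondrial RNA polymerase, through cre driven by the muscle creatine kinase promoter. The 3 control mice are titled L/L, which is read here as the loxP-flanked gene without cre, while their genotype field says Polrmt +/+. All 6 were C57BL/6N and 3-4 weeks old. That promoter is active in heart and skeletal muscle cells and not in the other cells of the heart, so the knockout is one of muscle cells. RNA came from crude heart mitochondria, so a myosin mRNA is measured here as far as it was carried along with the mitochondrial pellet. Cre-expressing mice without loxP sites were not among the groups, so cre and the loss of exon 3 cannot be told apart.

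Myosin is the motor of the sarcomere. Each heavy chain has a head that splits ATP and pulls on actin and a neck that binds an essential and a regulatory light chain. The adult mouse ventricle runs almost wholly on the fast alpha heavy chain from Myh6. The slower beta chain from Myh7 dominates before birth and returns in many forms of cardiac stress, which makes the Myh7 to Myh6 ratio a common readout of the fetal gene program. Ventricles carry the regulatory chain Myl2 and the essential chain Myl3, while adult atria carry Myl7 and Myl4.

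Gene-assigned counts were 1062030 to 1227997 in knockout libraries and 2867067 to 3234729 in control libraries. Mitochondrial DNA held 21.1% to 25.8% of them in knockout libraries and 79.5% to 83.5% in control libraries. Nuclear counts outside loci that collect cytosolic ribosomal RNA numbered 126339, 143790 and 164004 in knockouts 1 to 3, against 76949, 107675 and 109351 in controls 1 to 3. The nuclear genes are thus counted more deeply in knockout libraries. Levels below are counts-per-million values (CPM) on the TMM-scaled library size, and 3 counts correspond to 1.14 to 1.45 CPM in knockout libraries and 1.83 to 2.51 CPM in control libraries. Deletion of exon 3 cannot be read from counts summed over the whole gene. The labels name separate replicates but not litters, so p-values measure only the spread between these samples. In bulk RNA, fewer cells of a type and less RNA per cell cannot be told apart.

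Of the 7 myosin genes, 1 rose in knockout libraries, none fell, 4 did not pass the test and 2 did not pass the low-count filter. The gene that rose was Myh7. The filter used library sizes before TMM scaling, so a gene needed fewer counts to pass in a knockout than in a control library. Myh7b passed it with 39 summed counts in knockouts and 18 in controls. Myl4, with 49 and 27, did not. The call rule was an adjusted p under 0.05 in edgeR's quasi-likelihood test with Benjamini-Hochberg adjustment over 3363 genes. That rule called 13.4% of all tested genes, 6.66% higher and 6.78% lower, so 1 call among 5 tested myosin genes is near the background share. The median log2 fold change was 0.09 over the 5 tested myosin genes and 0.0038 over all tested genes. Myh6, Myl2 and Myl3, which make up nearly all myosin mRNA in these libraries, had overlapping levels in knockout and control libraries.

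The major and minor heavy chain genes are near-identical over long stretches, and this bears on how their reads can be assigned. Myh6 (ENSMUSG00000040752) lies at chr14:54941921-54966927 and Myh7 (ENSMUSG00000053093) at chr14:54970684-54994626 of GRCm38, in tandem on the minus strand with Myh7 upstream. Their coding sequences are identical at 5322 of 5800 aligned bases (91.76%). Of all 50-base windows of the Myh7 principal transcript, 22.21% also occur in an annotated transcript of Myh6, and 11.21% of 100-base windows do. The longest shared run is 245 bases of the coiled-coil rod, shown because a read inside it cannot tell the slow chain from the fast one. It is coding bases 4240 to 4484 of Myh7 (exons 32 and 33 of 41, chr14:54974947-54975347) and 4246 to 4490 of Myh6 (exons 30 and 31 of 39, chr14:54948327-54948725), given on the minus strand and spanning an intron:

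Myh7 and Myh6, shared coding run: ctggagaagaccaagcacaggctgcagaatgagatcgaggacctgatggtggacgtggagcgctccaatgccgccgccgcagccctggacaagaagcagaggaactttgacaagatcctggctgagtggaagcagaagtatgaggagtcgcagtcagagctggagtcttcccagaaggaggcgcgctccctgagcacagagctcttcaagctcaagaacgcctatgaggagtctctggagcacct

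The other pairs share less. Coding identity is 72.9% between Myh7b and Myh6, 64.46% between Myl7 and Myl2 and 78.12% between Myl4 and Myl3, and none of these pairs shares a 50-base window. How the authors treated reads that map to several genes is not stated in the labels, so both counts are uncertain. Since Myh6 has far more counts than Myh7, a small share of Myh6 reads assigned to Myh7 would weigh heavily on the Myh7 count, and such a share was not tested.

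The 250 bases before the start sites of Myh6 and Myh7 are shown because these genes are switched against each other in the heart. Each window holds 1 match to the letters of the MCAT element. MCAT is the site bound by TEAD factors, searched as CATTCC on both strands and set in capitals. The match begins 206 bases before the Myh6 start and 201 bases before the Myh7 start, and 12.6% of 32851 RefSeq promoter windows of the same length hold it. The Myh6 window is chr14:54966608-54966857 and the Myh7 window chr14:54994627-54994876, both on the minus strand of GRCm38.p6 (RefSeq):

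Myh6, before the start: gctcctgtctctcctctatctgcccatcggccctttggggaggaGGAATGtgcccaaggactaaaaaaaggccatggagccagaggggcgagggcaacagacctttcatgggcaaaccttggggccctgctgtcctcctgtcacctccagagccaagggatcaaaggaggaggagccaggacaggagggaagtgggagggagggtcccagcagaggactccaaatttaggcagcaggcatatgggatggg

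Myh7, before the start: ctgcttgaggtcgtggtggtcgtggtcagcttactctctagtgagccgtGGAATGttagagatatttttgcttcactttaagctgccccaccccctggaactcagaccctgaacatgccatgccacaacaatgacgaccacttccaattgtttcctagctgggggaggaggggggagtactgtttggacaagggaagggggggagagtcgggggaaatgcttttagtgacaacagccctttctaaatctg

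A second RefSeq start of Myh7 has no CATTCC in its window. Myl3 has 2 matches and Myl7 has 1, while the windows of Myh7b, Myl2 and Myl4 have none. The letters TATAAA and GATAA, on either strand, are in neither window printed above. They occur in 12.4% and 22.6% of all windows. The E-box letters, CANNTG, have 1 match in each window printed above and occur in 66.2% of all windows. A match is a description of the letters and not evidence of binding.

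Each heavy chain gene also hosts a microRNA in an intron. Their mature forms are shown for their seeds (bases 2 to 8, in capitals), since the microRNAs of Myh6 and Myh7 share one. The sequences are RefSeq's, on GRCm38.p6:

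mmu-miR-208a-3p, in Myh6: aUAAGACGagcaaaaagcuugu

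mmu-miR-208b-3p, in Myh7: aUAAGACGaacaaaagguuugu

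mmu-miR-499-5p, in Myh7b: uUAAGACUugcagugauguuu

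These libraries do not measure the microRNAs well, since they were not made for small RNA. The gene row of Mir208a held 2, 1 and 0 counts in knockouts 1 to 3 and 0, 1 and 1 in controls 1 to 3. Mir208b and Mir499 had 0 counts in all 6 libraries.

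Myh6, the fast alpha heavy chain, was by far the most abundant myosin transcript. It had 2701, 2722 and 2838 CPM in knockouts 1 to 3, against 2521, 2982 and 3206 CPM in controls 1 to 3. The knockout values lie inside the range of the controls, which spread more widely. Means were 2754 ± 73.7 CPM in knockouts and 2903 ± 349 CPM in controls (SD, n = 3 each). The log2 fold change was -0.08 ± 0.17 (SE, adjusted p = 0.846 by edgeR), and the 95% interval of the fold was 0.751 to 1.20. Myh6 held 86.3% to 89.1% of all counts of the 7 myosin genes in each library. The sign of this small difference turned under 6 of 14 alternative settings, and with no scaling beyond library size, where the median of all genes moved to 2.06, Myh6 stood at 1.98.

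Myh7, the slow beta heavy chain, was higher in knockout libraries. Raw counts were 88, 93 and 48 in knockouts 1 to 3, against 21, 23 and 22 in controls 1 to 3. On the CPM scale these are 42.6, 40.3 and 18.3 in knockouts, against 17.6, 14.1 and 13.4 in controls. Knockouts 1 and 2 stand well above every control, while knockout 3 is just above control 1. The groups do not overlap, which also holds for 29.3% of all tested genes in either direction and for 15.2% with the knockouts higher. Mean levels were 33.7 ± 13.4 CPM in knockouts and 15.04 ± 2.24 CPM in controls (SD, n = 3 each). The fitted rise was 2.23-fold (95% interval 1.55 to 3.21), a log2 fold change of 1.16 ± 0.26 (SE) with an adjusted p of 0.00152 by edgeR. DESeq2 gave 1.27 with an adjusted p of 0.00325. In the authors' deposited table Myh7 has a log2 fold change of 1.25 and an adjusted p of 0.00144. For the other 6 myosin genes the authors' deposited table has adjusted p-values of 0.602 to 0.990.

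The size of the Myh7 difference depends on single libraries. Without knockout 3 the log2 fold change was 1.48, and without knockout 1 it was 0.96 (adjusted p = 0.0362 by edgeR). Without control 3 it was 1.08 and no longer past the threshold (adjusted p = 0.0536 by edgeR). Knockout 3 is also the knockout library with the highest mitochondrial DNA share, 25.8% against 21.1% and 21.4% in knockouts 1 and 2. The part of that in its Myh7 level was not tested. Knockout 1 and control 2 were from female mice and the others from males, by Xist and Y-linked counts, and with sex as a term the Myh7 log2 fold change was 1.17.

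**Figure D1:**
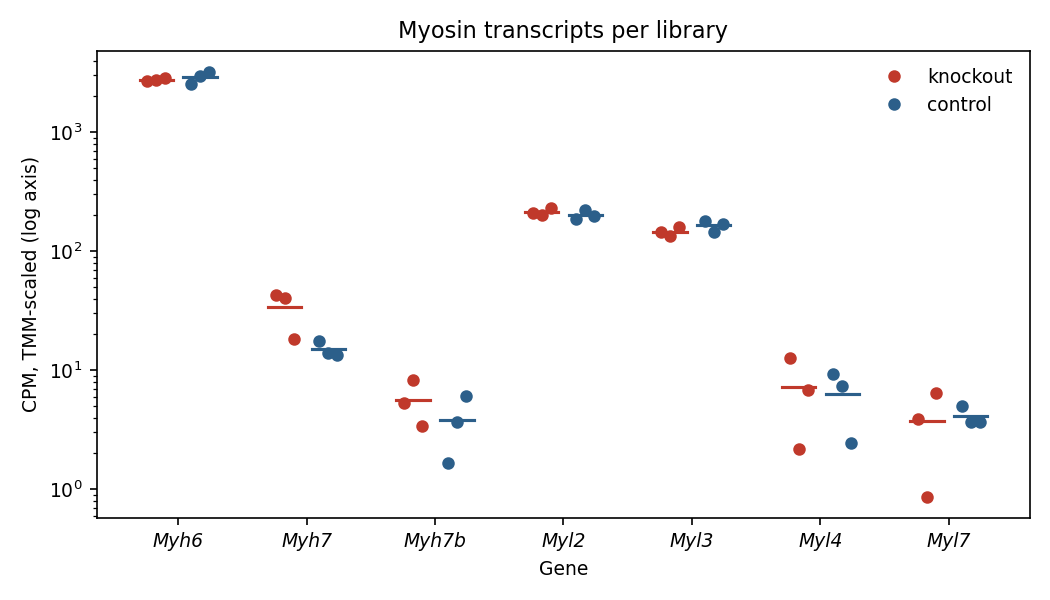
CPM on a TMM-scaled library size (log axis) for each myosin gene, with 1 point per library and a line at the group mean, knockouts left and controls right. Myh7 is the gene whose groups do not overlap, with knockouts at 18.3 to 42.6 CPM and controls at 13.4 to 17.6 CPM.

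**Figure D2:**
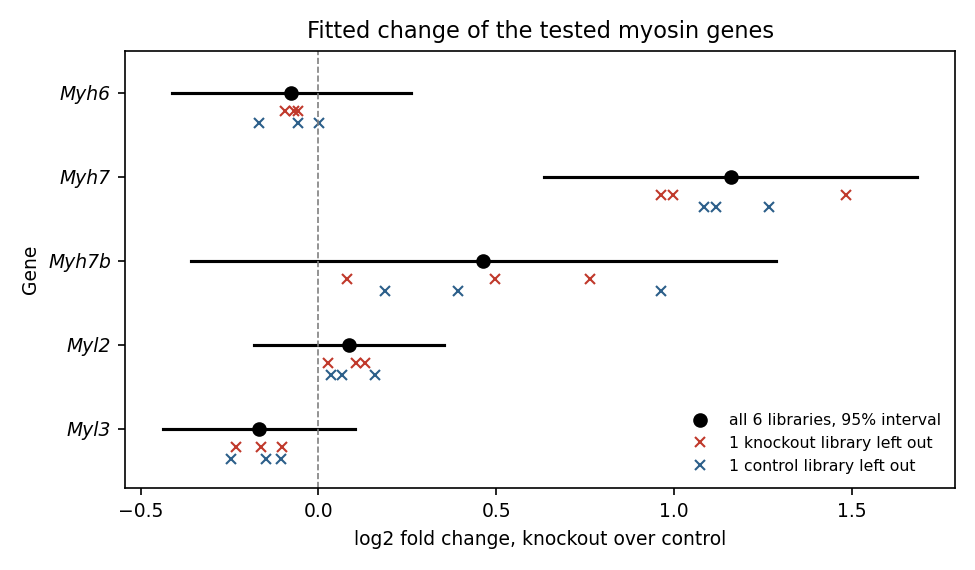
Log2 fold change of knockout over control for the 5 tested myosin genes, with the edgeR estimate and 95% interval from all 6 libraries (black) and the estimates with 1 library left out (crosses). The interval of Myh7 lies above 0 and those of Myh6, Myh7b, Myl2 and Myl3 cross 0.

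Set against Myh6 within each library, a measure that needs no scaling between libraries, Myh7 was the minor form in every heart. It held 1.55%, 1.46% and 0.641% of the summed Myh7 and Myh6 counts in knockouts 1 to 3. In controls 1 to 3 it held 0.693%, 0.470% and 0.418%. The exact Clopper-Pearson 95% intervals, which cover counting error only, were 1.25% to 1.91%, 1.18% to 1.79% and 0.473% to 0.848% in the knockouts. In the controls they were 0.430% to 1.06%, 0.298% to 0.704% and 0.262% to 0.631%. Knockouts 1 and 2 are above all controls, and knockout 3 lies below control 1, so on this measure the groups overlap.

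Per kilobase of exon, Myh7 made up 0.954% ± 0.394 of the pair in knockouts and 0.412% ± 0.115 in controls (SD, n = 3 each). The log2 ratio was -6.79 ± 0.72 in knockouts and -7.92 ± 0.39 in controls. The difference of 1.13, or 2.18-fold, did not pass an exact 2-sided permutation test (p = 0.2, where 3 against 3 cannot go below 0.1). With 1 library left out at a time, the difference ranged from 0.90 to 1.54, the largest without knockout 3.

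**Figure D3:**
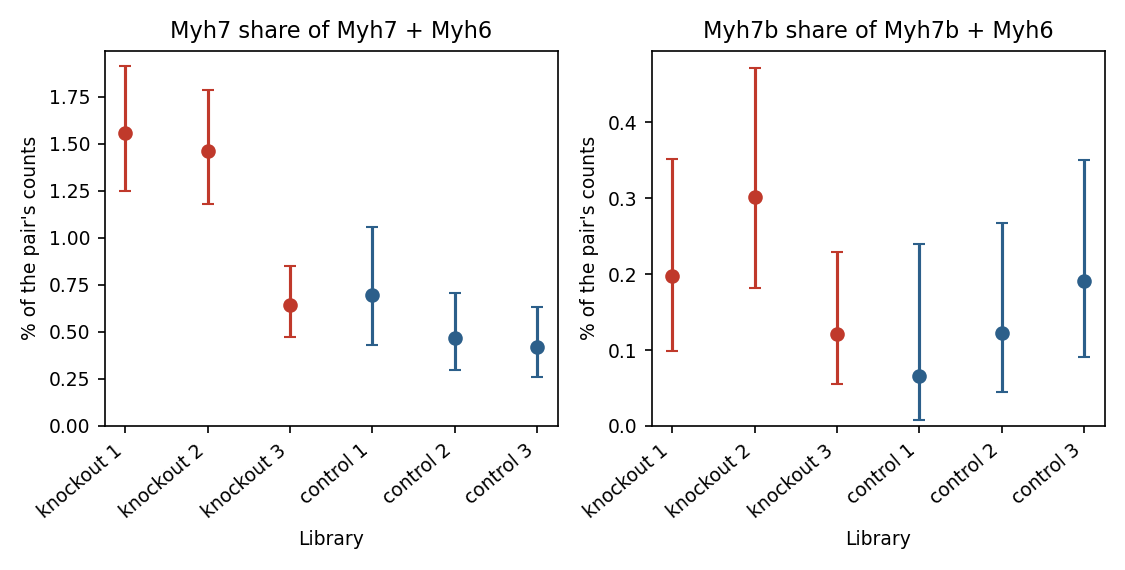
Share of Myh7 (left) and of Myh7b (right) in the counts it makes up together with Myh6, in percent, for each library, with exact Clopper-Pearson 95% intervals. Knockouts 1 and 2 reach 1.55% and 1.46% for Myh7, while knockout 3 at 0.641% lies among the controls.

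Mhrt, an RNA antisense to Myh7, did not pass the test, and its values were mostly lower in knockouts. Mhrt (ENSMUSG00000097652, chr14:54968678-54974349, plus strand) is a long noncoding RNA that starts between the heavy chain genes and overlaps 484 exonic bases of Myh7, 5.62% of its exon length. Gm31251 and Gm29015 are also annotated antisense to Myh7, over 523 (6.07%) and 142 (1.65%) of its exonic bases. Mhrt had 8, 14 and 8 counts in knockouts 1 to 3, against 7, 10 and 16 in controls 1 to 3. These are 3.88, 6.07 and 3.05 CPM in knockouts, against 5.87, 6.12 and 9.78 CPM in controls, and the groups overlap. Its log2 fold change was -0.77 ± 0.38 (SE, adjusted p = 0.185 by edgeR), which turns positive with no scaling beyond library size (1.28). There were 11.0, 6.64 and 6.00 Myh7 counts per Mhrt count in knockouts, against 3.00, 2.30 and 1.38 in controls. Every knockout is above every control on this ratio. With 0.5 added to each count, its log2 was 2.86 ± 0.46 in knockouts and 1.04 ± 0.55 in controls (SD, n = 3 each, exact permutation p = 0.1, the smallest the design allows). The ratio was chosen after its values were seen. The labels do not say whether reads were counted by strand, so reads from these overlaps cannot be told apart.

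**Figure D4:**
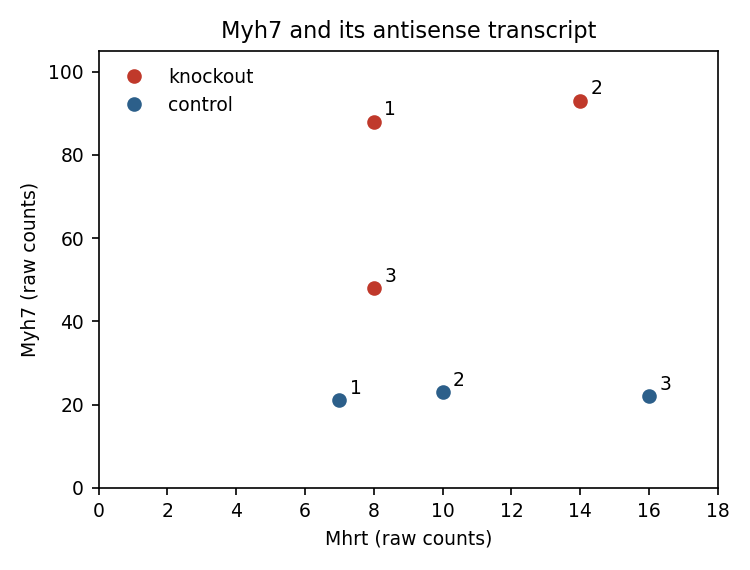
Raw counts of Myh7 against raw counts of the antisense transcript Mhrt, with 1 numbered point per library and both axes starting at 0, not scaled for depth. Knockouts have 48 to 93 Myh7 counts at 8 to 14 Mhrt counts, and controls 21 to 23 Myh7 counts at 7 to 16 Mhrt counts.

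Myh7b (ENSMUSG00000074652, chr2:155611212-155634307, plus strand) encodes the remaining heavy chain, of the slow-tonic type, that contributes little to the working heart. It had 11, 19 and 9 counts in knockouts 1 to 3, against 2, 6 and 10 in controls 1 to 3. On the CPM scale these are 5.33, 8.24 and 3.43 in knockouts, against 1.68, 3.67 and 6.11 in controls. Control 3 lies above knockouts 1 and 3, and the groups overlap. The log2 fold change was 0.46 ± 0.42 (SE, adjusted p = 0.544 by edgeR), with a 95% interval of the fold of 0.781 to 2.44, which does not exclude a change as large as that fitted for Myh7. It was 0.08 without knockout 2, 0.19 without control 1, 0.76 without knockout 3 and 0.96 without control 3, none past the threshold. Its log2 ratio to Myh6 differed by 0.63 (exact permutation p = 0.4).

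Myl2 (ENSMUSG00000013936, chr5:122100951-122113472, plus strand), the ventricular regulatory light chain, is phosphorylated to tune contraction. It had 211, 202 and 233 CPM in knockouts 1 to 3, against 188, 222 and 198 CPM in controls 1 to 3. The ranges overlap in part, with the highest value in knockout 3 and the lowest in control 1. Means were 215 ± 15.9 CPM in knockouts and 203 ± 17.7 CPM in controls (SD, n = 3 each). The log2 fold change was 0.09 ± 0.14 (SE, adjusted p = 0.767 by edgeR), with an interval of the fold of 0.882 to 1.28.

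Myl3 (ENSMUSG00000059741, chr9:110741861-110769798, plus strand) is the ventricular essential light chain, which stiffens the lever arm of the head and is also the slow skeletal form. It had 146, 133 and 160 CPM in knockouts 1 to 3, against 179, 146 and 169 CPM in controls 1 to 3. Knockout 2 is the lowest of the 6 libraries and control 1 the highest, while knockout 1 matches control 2 and knockout 3 lies within the control range. Means were 146 ± 13.3 CPM in knockouts and 165 ± 16.8 CPM in controls (SD, n = 3 each). The log2 fold change was -0.17 ± 0.14 (SE, adjusted p = 0.494 by edgeR), with an interval of the fold of 0.739 to 1.07. With no scaling beyond library size it stood at 1.91, against the 2.06 of the median gene.

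Myl4 (ENSMUSG00000061086, chr11:104550663-104595753, plus strand), the atrial and fetal essential light chain, did not pass the low-count filter of the main test. It had 26, 5 and 18 counts in knockouts 1 to 3, against 11, 12 and 4 in controls 1 to 3. On the CPM scale these are 12.6, 2.17 and 6.86 in knockouts, against 9.22, 7.35 and 2.44 in controls. Knockout 2 and control 3 are both low, and the groups overlap. Without the low-count filter its log2 fold change was 0.34 ± 0.37 (SE, adjusted p = 0.770 by edgeR). With the filter on nuclear counts Myl4 was tested, at 0.29 ± 0.62 (SE, adjusted p = 0.807 by edgeR).

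Myl7 (ENSMUSG00000020469, chr11:5896637-5898782, minus strand), the atrial regulatory light chain, had 8, 2 and 17 counts in knockouts 1 to 3, against 6 in each control. On the CPM scale these are 3.88, 0.867 and 6.48 in knockouts, against 5.03, 3.67 and 3.67 in controls. Knockout 3 is the highest and knockout 2 the lowest, below the level of 3 counts, with all controls between them. Without the low-count filter the log2 fold change was 0.06 ± 0.47 (SE, adjusted p = 0.969 by edgeR). At these counts a moderate difference of either atrial chain was not detectable: the edgeR intervals of the fold were 0.767 to 2.09 for Myl4 and 0.546 to 1.98 for Myl7.

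The atrial light chains were a small part of the light chain mRNA in every library. Per kilobase of exon, Myl4 and Myl7 together made up 4.91%, 1.14% and 5.93% of the 4 light chains in knockouts 1 to 3, against 5.40%, 4.04% and 3.53% in controls 1 to 3. Knockout 2 is far below the other 5 libraries, in which the groups overlap. The log2 ratio of atrial to ventricular chains was -4.77 ± 1.21 in knockouts and -4.38 ± 0.32 in controls (SD, n = 3 each), a difference of -0.39 (exact permutation p = 0.9). Over principal transcript lengths the difference was -0.22, and without division by length -0.16. Without knockout 2 it was 0.31. As plain means of the share of counts, the atrial chains held 2.86% in knockouts and 2.76% in controls. Neither pair passed the test, with differences of -0.60 for Myl7 to Myl2 (exact permutation p = 0.6) and 0.20 for Myl4 to Myl3 (exact permutation p = 0.9). The first was 0.12 without knockout 2, and the second -0.35 without knockout 1 and -0.37 without control 3.

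**Figure D5:**
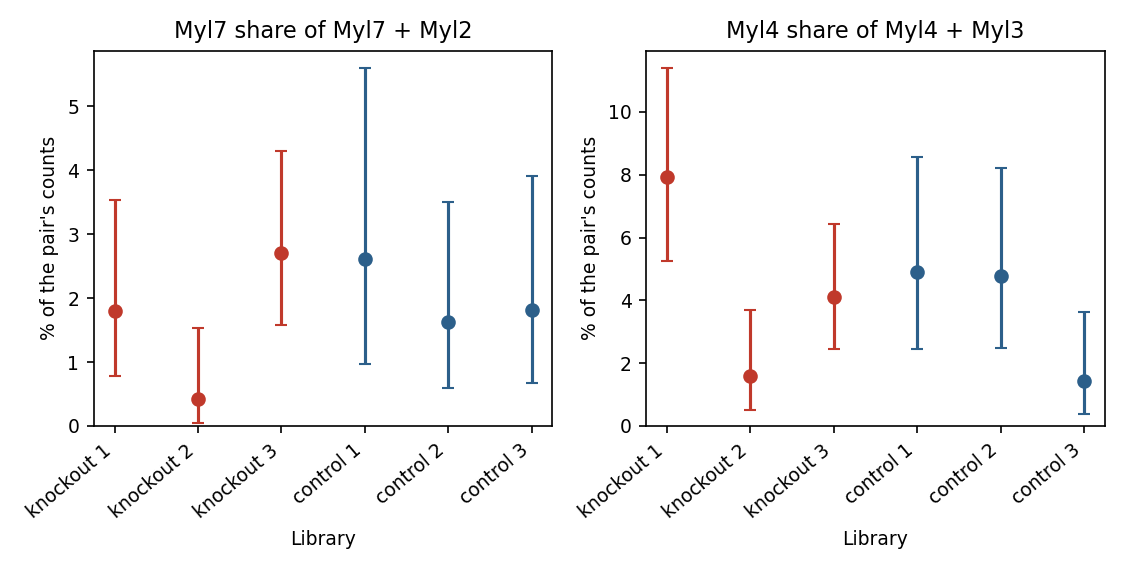
Share of Myl7 in the counts of Myl7 and Myl2 (left, regulatory chains) and of Myl4 in those of Myl4 and Myl3 (right, essential chains), in percent, for each library, with exact Clopper-Pearson 95% intervals. Knockout 2 is the lowest of the knockouts in both panels, and knockout and control libraries overlap.

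How much atrial tissue a preparation held bears on these chains, and its part in the low values of knockout 2 was not tested. Of 8 atrial marker genes 4 passed the low-count filter, and 1 of them fell, the potassium channel gene Kcnj3 (2.98 CPM in knockouts and 8.46 CPM in controls). Its log2 fold change was -1.55 ± 0.40 (SE, adjusted p = 0.00209 by edgeR), 0.49 with no scaling beyond library size, and the call is lost without control 3 and under DESeq2 (adjusted p = 0.155). The summed atrial markers were 85.0 to 100.3 CPM in knockouts and 99.6 to 121 CPM in controls (exact permutation p = 0.2). Most of that sum is 1 gene, Pam, with 75.6 CPM in knockouts and 83.2 CPM in controls, chosen to be named after its values were seen. Among 5 ventricular markers Lbh was the only one tested, and it fell (log2 fold change -0.88 ± 0.20, adjusted p = 3.19e-04 by edgeR), but is 1.20 with no scaling beyond library size. Over all tested genes, 6.78% were called lower.

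Compared per kilobase of exon, the order of levels in knockouts was Myh6 at 409, Myl2 at 110, Myl3 at 71.6, Myl7 at 6.34, Myh7 at 3.92, Myl4 at 1.55 and Myh7b at 0.854 CPM per kilobase. In controls it was the same order, at 432, 104, 80.6, 6.99, 1.75, 1.37 and 0.576 CPM per kilobase. The top 3 are separated from each other and from the rest by more than their spread. In knockouts the neighbours Myl7 and Myh7 (SD 4.76 and 1.56), Myh7 and Myl4, and Myl4 and Myh7b (SD 1.13 and 0.365) overlap. In controls Myh7 and Myl4 (SD 0.260 and 0.755) overlap, as do Myl4 and Myh7b (SD 0.335). The exon length of Myl4, 4637 bases, is set by long retained-intron transcripts. Over its principal transcript of 943 bases its level is 7.64 CPM per kilobase in knockouts and 6.72 in controls, close to Myl7.

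The balance between light and heavy chains differed by less than the spread between libraries. Per kilobase of exon, the light chains made up 31.4% ± 1.88 of the myosin signal in knockouts and 30.9% ± 2.83 in controls (SD, n = 3 each). Their log2 ratio to the heavy chains was -1.10, -1.26 and -1.01 in knockouts 1 to 3, against -0.95, -1.20 and -1.32 in controls 1 to 3. The knockout values lie within the control range, and the difference of 0.03 did not pass an exact permutation test (p = 0.9). The level of the share depends on the length used. Myl2 and Myl3 have exon lengths of 1950 and 2044 bases, against principal transcripts of 889 and 937 bases. For Myh6 these lengths are 6726 and 6113 bases, so the light chain share is larger over principal transcripts. The difference in log2 ratio was then 0.034.

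As a share of nuclear counts outside the ribosomal RNA loci, the 7 myosin genes held 5.10%, 4.99% and 5.22% in knockouts 1 to 3, against 4.53%, 5.13% and 5.39% in controls 1 to 3. The groups overlap, with means of 5.10% ± 0.119 in knockouts and 5.01% ± 0.439 in controls (exact permutation p = 0.9). Counted over all gene-assigned reads instead, the share was 0.654% ± 0.0454 in knockouts and 0.164% ± 0.0454 in controls, without overlap (exact permutation p = 0.1). The measures differ in their denominators, and mitochondrial DNA holds most counts of the control libraries.

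Skeletal and developmental sarcomeric myosins were not found in amounts that could be tested. Of 8 such genes, 6 had 0 counts in all libraries. Of 8 skeletal muscle markers, 7 had 0 counts in all libraries. The remaining marker, Tnnt3, had 1 count in knockout 2 and is named after its values were seen. Among 9 smooth muscle and non-muscle myosin genes 6 were tested, with a median log2 fold change of -0.23, 1 rose and none fell. Over all tested genes, 6.66% rose and 6.78% fell. The riser, Myl12a, a regulatory light chain of non-muscle myosin, had 26.6, 23.4 and 24.0 CPM in knockouts, against 17.6, 15.3 and 12.8 CPM in controls. All knockouts are above all controls, as in 15.2% of all tested genes (log2 fold change 0.71 ± 0.22, adjusted p = 0.0163 by edgeR). The call is lost without knockout 1, control 2 or control 3, and DESeq2 gave an adjusted p of 0.110.

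Most genes listed for the folding, binding, phosphorylation and turnover of myosin did not pass the test. Of 18 listed genes 13 were tested and 10 did not pass, with a median log2 fold change of -0.06, 2 rose and 1 fell. The background shares over all tested genes were 6.66% higher and 6.78% lower. Mybpc3, cardiac myosin-binding protein C, which lies along the thick filament and restrains the heads, had 790, 804 and 857 counts in knockouts, against 283, 381 and 421 in controls. That is 353 ± 28.2 CPM in knockouts and 243 ± 12.8 CPM in controls (SD, n = 3 each), a log2 fold change of 0.54 ± 0.14 (SE, adjusted p = 0.00174 by edgeR). Hsp90aa1, a chaperone that works with UNC45 in folding the myosin head, had 37, 38 and 36 counts in knockouts, against 6, 4 and 8 in controls. No knockout is near a control, and its log2 fold change was 1.96 ± 0.33 (SE, adjusted p = 4.19e-07 by edgeR). Hsp90aa1 passed the low-count filter through its knockout counts only, so it was tested because of the group where it is high. Both calls hold under DESeq2 and with any 1 library left out.

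Mylk, the smooth muscle myosin light chain kinase, was called lower, at 3.71 ± 2.07 CPM in knockouts and 8.71 ± 2.17 CPM in controls (SD, n = 3 each). Its log2 fold change was -1.17 ± 0.38 (SE, adjusted p = 0.0226 by edgeR) and 0.89 with no scaling beyond library size. The call is lost without knockout 1, knockout 2 or control 2, and DESeq2 gave an adjusted p of 0.318. Summed smooth muscle markers, of which Mylk is 1 of 5, were 20.8 to 31.7 CPM in knockouts and 38.5 to 71.0 CPM in controls, and their part in the Mylk value was not tested.

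Of 18 factors known to regulate myosin genes, 14 were tested, with a median log2 fold change of -0.04, none rose and 1 fell. Over all tested genes, 6.66% were called higher and 6.78% lower. The gene that fell was Tead1, which encodes a TEAD factor. Its binding at the letters capitalised above was not tested. It had 20.8, 31.2 and 17.9 CPM in knockouts, against 35.2, 34.3 and 36.7 CPM in controls. All knockouts are below all controls, with knockout 2 the closest. Groups that do not overlap, in either direction, were found for 29.3% of all tested genes. The Tead1 log2 fold change was -0.61 ± 0.19 (SE, adjusted p = 0.0166 by edgeR) and 1.47 with no scaling beyond library size. The call is lost without knockout 1, knockout 3 or control 3, and DESeq2 gave an adjusted p of 0.381.

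Summed levels of fibroblast, endothelial and macrophage markers were lower in every knockout library than in every control library, while most single genes of the fibroblast and endothelial lists did not pass the test. Summed CPM in knockouts and controls were 592 to 667 and 697 to 753 for 8 fibroblast markers. They were 96.9 to 114 and 134 to 161 for 6 endothelial markers, and 10.4 to 13.3 and 24.5 to 39.4 for 4 macrophage markers (exact permutation p = 0.1 for each). Called lower were 2 of 8 fibroblast genes (Pdgfra and Dpt), 1 of 6 endothelial genes (Kdr), both tested macrophage genes of 4 (Csf1r and Lyz2) and 2 of 5 smooth muscle genes (Acta2 and Mylk), all of which have a log2 fold change above 0 with no scaling beyond library size. The calls for Pdgfra, Kdr, Lyz2 and Acta2 are each lost with 1 or more single libraries left out. DESeq2 called only Dpt and Csf1r of these 7 genes. Over all tested genes, 6.66% were called higher and 6.78% lower, and 29.3% do not overlap between groups in either direction. The 5 erythroid genes summed to 57.7 to 106 CPM in knockouts and 56.3 to 123 CPM in controls, with none called. The 6 cardiomyocyte markers summed to 4388 to 4859 CPM in knockouts and 4471 to 5919 CPM in controls, overlapping (exact permutation p = 0.3). Most of that sum is Ttn, the giant sarcomere spring titin, with 3695 CPM in knockouts and 3924 CPM in controls (adjusted p = 0.823 by edgeR), also named after its values were seen. Of these 6, Mybpc3 rose and 3 fell on the TMM scale. Those were Ryr2 (log2 fold change -1.30), the calcium release channel, Pln (-1.15), the brake of the calcium pump, and Tnnt2 (-0.48), cardiac troponin T, and all 3 are above 0 with no scaling beyond library size. The Tnnt2 call is lost under DESeq2 (adjusted p = 0.0920). The part of these markers in the myosin values was not tested.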

How the data were processed

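RNA-seq libraries of crude heart mitochondria from 3 knockout and 3 control mice were used. The kits were miRNeasy for extraction and TruSeq for libraries, with paired-end MiSeq reads, per the labels' protocols. The submitters' processing notes name HISAT 0.1.6, featureCounts 1.3.5-p4, R 3.2.0, edgeR 3.11.2 and GRCm38. Settings for strand and multiple mapping are not given in the sources at hand. The authors deposited raw counts per Ensembl gene for each library. They also deposited normalised values, read here as a score because their scaling is not stated in the labels, and a comparison table with log2 fold changes and log2 CPM, a likelihood ratio score and p-values, plain and adjusted.

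Genes were named from GENCODE M21 (GRCm38). Raw counts of all genes were filtered (filterByExpr, minimum count 10, minimum total 15), TMM-scaled and tested with edgeR 4.0.16 (quasi-likelihood, robust) in R 4.3.3, with Benjamini-Hochberg adjustment over 3363 genes. DESeq2 1.42.0 was an alternative. Isoform ratios used counts per exon length with 0.5 added and 2-sided exact permutation tests over libraries. Benjamini-Hochberg adjustment over these 7 tests (6 ratios and 1 share) gave 0.9 for each. On data simulated for the knockout against control comparison over 3363 genes, 49.5% of 103 2-fold and 88.7% of 97 4-fold changes were recovered, with 8 false calls. Replicate libraries differed by more than sampling noise (chi-square per degree of freedom 1.19 to 1.43), so each counts as 1 sample. The titles do not say whether replicate numbers pair the mice, and the main tests treated the libraries as unpaired. Genes named are the 7 members, called genes of each list, the RNAs inside or antisense to the heavy chain genes, and the 3 genes most alike Myh6 and Myh7 over the libraries; Tnnt3, Pam and Ttn were named after their values were seen. Members and lists were chosen with earlier results of these data known.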

Additional observations from a re-analysis of the deposited data

How the results depend on the processing

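The Myh7 call was kept in 13 of 14 alternative settings and lost without control 3. Calls over all genes numbered 452, against 3343 with no scaling beyond library size, 182 by DESeq2 and 286 to 389 with 1 library left out. Of the calls, 49.6% were higher, against 62.8% on nuclear library sizes, 62.6% without the low-count filter, 58.8% by DESeq2 and 99.5% with no scaling. With no scaling, 5 myosin genes were called, all higher, and with 1 library left out 0 to 1. The log2 fold change of Myh6 was then 1.98 and of Myl3 1.91. For Myh6 it was 0.0093 on nuclear library sizes, 0.052 without the filter, 0.0106 with the filter on nuclear counts, 0.017 by DESeq2 and -0.168 to 0.00070 with 1 library left out, highest without control 3.

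With 1 library left out, differences ranged from 0.90 to 1.54 for Myh7 to Myh6, 0.30 to 0.96 for Myh7b to Myh6, -0.80 to 0.31 for atrial to ventricular light chains, -1.09 to 0.12 for Myl7 to Myl2, -0.37 to 0.80 for Myl4 to Myl3 and -0.053 to 0.13 for light to heavy chains. The sign turned without knockout 2 for the atrial chains together and for Myl7 to Myl2, without knockout 1 (-0.35) or control 3 for Myl4 to Myl3, and without knockout 3 (-0.03) or control 3 for light to heavy chains. The myosin share differed by -0.152 to 0.275 percentage points, lowest without control 1, and by -0.0499 over all nuclear counts. The cause of these shifts was not tested. No ratio changed sign under another pseudocount, the authors' normalised values, or length choices, of which principal transcript length was chosen after seeing the data. In ratios of single genes the length cancels from the difference. The length choice could therefore matter only for the atrial to ventricular and the light to heavy chain ratios.

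Same-numbered libraries did not deviate together (r = -0.019 to 0.021), and 4 of 6 correlated best with their own number. With the replicate number as a block 429 genes were called, Myh7 among them (adjusted p = 9.09e-05 by edgeR), and the exact sign-flip p of Myh7 to Myh6 was 0.25, the smallest 3 pairs allow. Depth limits Myh7b, Myl4 and Myl7 most, with 2 to 26 counts per library.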

Other observations

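Across the 6 libraries, the genes whose log2 CPM was most like that of Myh6 among 1636 nuclear genes compared were Coq9, of coenzyme Q synthesis (Pearson r = 0.967), Col5a3, a fibrillar collagen chain (0.927), and Uqcrc1, a core subunit of respiratory complex III (0.927). None of these passed the test between knockout and control. Those most like Myh7 were Nek9, a mitotic kinase (0.994), Supt6, a transcription elongation factor (0.961), and Tgm2, tissue transglutaminase (0.956). Tgm2 rose, with 33.4, 29.5 and 22.1 CPM in knockouts 1 to 3, against 17.6, 13.5 and 15.3 CPM in controls 1 to 3 (log2 fold change 0.88 ± 0.22, adjusted p = 0.00130 by edgeR). As with Myh7, knockout 3 is the lowest knockout and all knockouts lie above all controls, as in 15.2% of all tested genes. These values describe 6 libraries that share the group difference and are picked from many genes, so no p is given.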
